A study of Homo sapiens and Mus musculus with 12 samples.

Results

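The peaks described here are the wide peaks of mouse Spdef, those spanning at least 1000 bp, in the deposited list for the FC1245 line. They were chosen by width alone: 555 of 4639 peaks reached that width (11.96%, 95% Wilson interval 11.1 to 12.9). The 4639 peaks lie on 17 mouse chromosomes. The mitochondrial peak, 1 peak on an unplaced sequence and the peaks of chromosomes 11, 15 and 19 were left out, and chromosome Y held 0 peaks. The whole mouse list holds 5719 peaks, and the 3 lists of the series hold 19164. The other 4084 peaks of the same chromosomes, all under 1000 bp, are called the narrower peaks.

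FC1245 is a mouse pancreatic ductal adenocarcinoma (PDA) line of C57/Bl6 background and genotype KrasLSLG12D/+; Trp53LSLR172H/+; Pdx1-Cre, in which Cre under the Pdx1 promoter switches on both mutant alleles in the pancreatic lineage. All 4 FC1245 libraries came from cells carrying HA-tagged mouse Spdef. In 3 of them an HA-tag antibody was used and in 1 an IgG control. The remaining 8 libraries of the study are of HPAF-II, an established human line of the same cancer, with HA-tagged human SPDEF. The antibody reads the tagged protein in 1 cell line, so the list says nothing of untagged Spdef or of other lines.

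Spdef belongs to the ETS family of transcription factors, which bind DNA through a winged helix-turn-helix domain. It is known for driving the differentiation of mucus-secreting goblet cells. In CUT&RUN an antibody directs a nuclease to the protein of interest, the freed DNA fragments are sequenced, and stretches with more fragments than the background are called as peaks. Peak width is taken here as the length of each listed peak, and whether each is a whole stretch as called was not tested. Several neighbouring binding sites, a broad zone of signal and deeper sequencing can each lengthen it, and these were not told apart here.

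The list gives only the chromosome, start and end of each peak, counted here from 1 on the mouse build mm10. It has no height, score or replicate values, so each number below is a single measurement of 1 list made at unknown sequencing depth. Peaks of the IgG library were not analysed here, and the counts have no control beside them. Intervals cover counting error only. They treat peaks as independent, which neighbouring peaks are not, so they are too narrow. Peaks are not replicates, and no significance test was made over them. Places are named by cytogenetic band, since no mouse gene annotation of this build was used and no peak was tied to a gene.

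The wide peaks ranged from 1001 to 4442 bp, with a median of 1264 bp and quartiles of 1113.5 and 1510.5 bp. The narrower peaks had a median of 387 bp. Counts fell with width: 260 spanned less than 1250 bp (46.8%), 150 from 1250 bp to under 1500 bp, 103 from 1500 bp to under 2000 bp, 35 from 2000 bp to under 3000 bp and 7 at least 3000 bp. Together they covered 772 kb, which is 29.9% of all bases covered on these chromosomes. These widths chose the members and are given as a description.

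**Figure D1:**
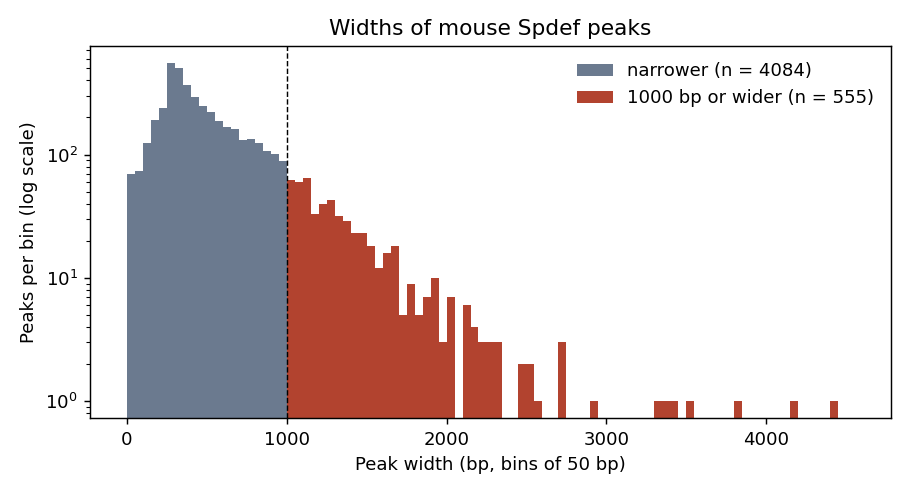
Number of mouse Spdef peaks (vertical axis, log scale) by width in bp (horizontal axis, bins of 50 bp), with the 555 wide peaks in red, the 4084 narrower peaks in grey and a dashed line at 1000 bp. The counts fall without a break across 1000 bp, and 7 peaks span at least 3000 bp.

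No gap in width separated the members from the rest. From 1000 to 1010 bp there were 21 peaks, and from 990 bp to just under 1000 bp there were also 21. The narrowest members lay in 1qF (chromosome 1, 144004284 to 144005284, 1001 bp), 10qB4 (chromosome 10, 59628531 to 59629532, 1002 bp) and 3qD (chromosome 3, 57424681 to 57425682, 1002 bp). The widest peaks left out lay in 2qG1 (chromosome 2, 143089879 to 143090877, 1 bp short of the limit), 9qA5.2 (chromosome 9, 46119985 to 46120982, 998 bp) and 10qD2 (chromosome 10, 116267079 to 116268075, 997 bp). The class is therefore the upper end of one continuous range.

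The widest member lay in 1qA5 (chromosome 1, 24611649 to 24616090). It spanned 4442 bp and its nearest peak was 503 kb away. Whether this stretch is a nuclear copy of mitochondrial DNA, whose reads can come from the mitochondrial genome, was not tested, since no mm10 sequence was used. The mitochondrial peak left out of the list spanned 15893 bp. Next came a peak of 4181 bp in 3qF1 (chromosome 3, 88138039 to 88142219) and one of 3844 bp in 1qD (chromosome 1, 91239854 to 91243697). The fourth spanned 3519 bp in 3qA3 (chromosome 3, 27152852 to 27156370). In 4qB1 a peak of 3415 bp (chromosome 4, 45964427 to 45967841) lay 1.73 kb from another wide peak, and one of 3321 bp (chromosome 4, 47090774 to 47094094) was 199.6 kb from its nearest peak. A peak of 3385 bp lay in 12qD2 (chromosome 12, 86824071 to 86827455) and one of 2944 bp in 12qF1 (chromosome 12, 111428016 to 111430959). The last of the 10 widest were in 16qB2 (chromosome 16, 31507100 to 31509830, 2731 bp) and 3qC (chromosome 3, 51660643 to 51663361, 2719 bp).

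These 10 peaks did not share one setting. Of them, 4 had another peak within 10 kb and 2 had none within 100 kb. The nearest peak was wide for 1 of the 10. Of all 555 wide peaks, 37.1% had another peak within 10 kb and 74.8% within 100 kb, and the nearest was wide for 13.9%. For narrower peaks these shares were 33.1%, 68.1% and 11.8%. Counts of 10 peaks are too few to show whether the widest differ from other peaks in these shares. Chromosome 3 held 3 of the 10 widest, and 60 of all 555 wide peaks.

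Spacing was not used to choose the members, and it was compared between wide and narrower peaks as the gap from edge to edge to the nearest other peak. The median gap was 29.8 kb for wide peaks (95% interval of the median 20.5 to 36.3) and 36.7 kb for narrower peaks (33.6 to 39.5). The difference of -6.82 kb had an interval from -16.6 to 0.325 kb, which includes 0. Within single chromosomes the median gap was smaller for wide peaks on 14 of 17, the exceptions being chromosomes 2, 5 and 14. On chromosome 2 the medians were 69.6 kb for wide and 36.0 kb for narrower peaks, whereas on chromosome 3 they were 11.6 and 22.9 kb. Gaps varied far more within each class than between classes, with quartiles of 3.07 and 102 kb for wide peaks and 3.995 and 143 kb for narrower ones. The smallest gap was 49 bp for wide and 3 bp for narrower peaks.

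How the classes differed depended on the distance considered. Close by, wide peaks had fewer neighbours: 8.65% had another peak within 500 bp, against 12.1% of narrower peaks, a difference of -3.45 percentage points (Newcombe interval -5.76 to -0.644). Within 1 kb the shares were 14.8% and 16.9%, and the interval of the difference included 0 (-5.05 to 1.29). Within 10 kb they were 37.1% and 33.1%, again with an interval that included 0 (-0.119 to 8.40). The interval at 10 kb changed with the setting. It left out 0 without peaks under 100 bp (4.62 points, 0.473 to 8.94), with peaks within 200 bp merged (4.72, 0.578 to 9.02), with chromosomes 11, 15 and 19 included (4.33, 0.505 to 8.26) and against narrower peaks of at least 500 bp (6.17, 1.55 to 10.9). It included 0 without chromosomes X and Y (3.55, -0.661 to 7.93), by midpoint distance (3.27, -0.878 to 7.58) and without the 6qB2.3 clusters described further on (2.59, -1.58 to 6.96). The same held with a limit of 1500 bp (5.24, -2.42 to 13.5) and of 750 bp (-0.748, -3.88 to 2.47). The difference at 10 kb is thus unsettled. Within 100 kb wide peaks were ahead, with 74.8% against 68.1%, a difference of 6.68 points (2.65 to 10.4). Beyond that the classes met: within 1 Mb the shares were 96.2% and 96.6%.

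**Figure D2:**
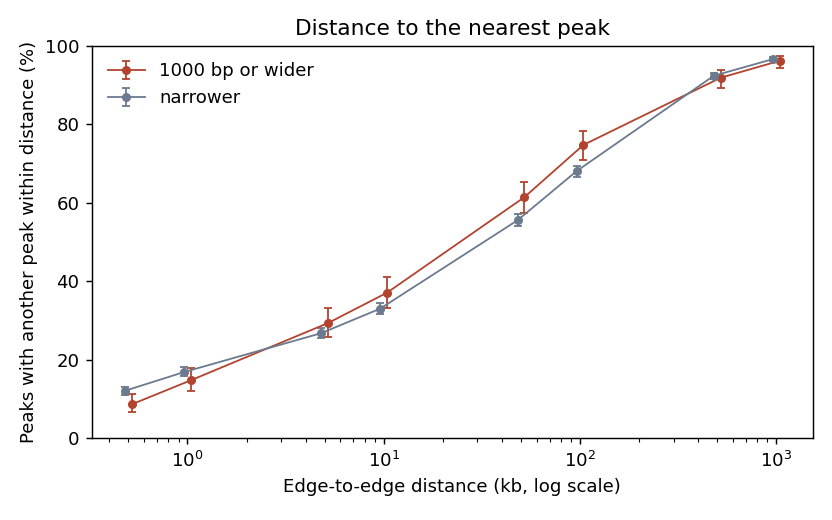
Share of peaks with another peak within a given edge-to-edge distance (horizontal axis, kb, log scale) for wide (red) and narrower (grey) peaks, with 95% Wilson intervals as bars; points are moved slightly sideways so that the bars can be seen. Wide peaks lie below narrower ones at 0.5 kb (8.65% against 12.1%) and above them at 100 kb (74.8% against 68.1%).

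The lead of wide peaks at 100 kb was also seen chromosome by chromosome, the share being higher for wide peaks on 14 of 17. With each chromosome left out in turn, the difference ran from 6.13 points (without chromosome 3) to 7.82 points (without chromosome 2), and without the 6qB2.3 clusters described further on it was 6.14 points (2.03 to 9.94). Part of it went with the bands in which wide peaks lay. When the narrower peaks were weighted to the bands of the wide ones, which could be done for 553 of the 555, the shares within 100 kb were 75.05% for wide and 70.9% for narrower peaks. At 10 kb the weighted shares were 37.3% and 37.0%. Against narrower peaks of the same bands, the share at 10 kb was thus almost the same. At shorter range the weighting widened the deficit of wide peaks, to 14.8% against 18.9% within 1 kb and 8.68% against 13.6% within 500 bp.

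Short gaps were also a feature of the narrowest peaks. Of the 697 peaks under 250 bp, 26.1% had another peak within 1 kb (23.0 to 29.5), more than the 14.2% (10.5 to 18.999) of the 260 peaks from 1000 bp to under 1250 bp. The share was 16.4% from 250 bp to under 500 bp and 14.5% from 500 bp to under 750 bp. Among peaks from 750 bp to under 1000 bp the share was 10.5% (8.22 to 13.3). The 14.8% of all wide peaks thus lay below the classes under 500 bp, but not below those from 500 bp to under 1000 bp. Whether the joining of neighbouring stretches during peak calling bears on these shares was not tested.

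Among the members themselves, gaps did not follow width evenly. Of the 42 peaks of at least 2000 bp, 52.4% had a peak within 10 kb (37.7 to 66.6), and their median gap was 7.65 kb (2.11 to 29.1). For the 103 members from 1500 bp to under 2000 bp the share was 33.01% (24.7 to 42.6) and the median gap 39.2 kb (18.7 to 53.1). Both pairs of intervals overlap, but overlap does not settle whether the 2 width classes differ. No interval of the difference was computed for them. Without the 6qB2.3 clusters, 40 peaks of at least 2000 bp remained, with a median gap of 9.60 kb. Over all 4639 peaks the rank correlation of width with gap was 0.0302 (Spearman's rho, a description, since the peaks share 1 list).

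Whether wide peaks lay beside one another was read from the class of the nearest peak. The nearest peak was wide for 77 of 555 wide peaks (13.9%, 11.2 to 17.0) and for 483 of 4084 narrower ones (11.8%, 10.9 to 12.9), and the interval of the difference ran from -0.774 to 5.31 points. With 1500 bp as the limit the difference was 3.94 points (0.783 to 9.29), and with 750 bp it was -0.786 points (-3.56 to 2.12). Another wide peak lay within 10 kb of 8.47% of wide and 6.19% of narrower peaks. The median gap to the nearest other wide peak was 730 kb from a wide peak (601 to 916) and 753 kb from a narrower one (703 to 798). Where a wide peak had a neighbour within 10 kb, that neighbour had a median width of 426 bp (373 to 494, n = 206). For narrower peaks the neighbour's median width was 415 bp (390 to 433, n = 1350).

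Read along the chromosomes, wide peaks mostly came singly between narrower ones. Of the runs of consecutive wide peaks, 417 held 1 peak, 55 held 2, 8 held 3 and 1 held 4. With 11.96% of all peaks wide, most runs would hold 1 peak in an unordered list too. No expected counts were computed, so these counts do not show a particular arrangement. The run of 4 lay in 5qE1 (chromosome 5, 89347401 to 90641897) and was stretched over 1294 kb. Runs of 3 in 12qB3 (chromosome 12, 45070394 to 48510842), 9qA4 (chromosome 9, 34279152 to 35118829) and 6qB1 (chromosome 6, 40114562 to 41483062) spanned 3440, 840 and 1368 kb. A run of 3 in 6qB2.3 (chromosome 6, 47739667 to 47749713) filled only 10.0 kb.

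Peaks with gaps of at most 12500 bp were then stitched into clusters. Of the wide peaks, 332 stood alone (59.8%), 127 in a pair and 96 in a cluster of 3 or more (17.3%, 14.4 to 20.7). Of the narrower peaks, 64.2% stood alone and 13.2% were in a cluster of 3 or more (12.2 to 14.3). The difference for clusters of 3 or more was 4.05 points (0.940 to 7.57). Without a pair of clusters in 6qB2.3, described next, it was 2.12 points and its interval included 0 (-0.846 to 5.52). Without the whole of chromosome 6 it was 2.73 points.

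The pair of clusters in 6qB2.3 held more wide peaks than any other cluster. The first (chromosome 6, 47652431 to 47686491) had 8 wide peaks among 15 in 34.1 kb. The second (chromosome 6, 47737306 to 47781326) had 7 wide peaks among 17 in 44.0 kb, and began 50.8 kb after the first ended. Together they held 15 wide peaks of 32 (46.9%, 30.9 to 63.6) and all 15 wide peaks of the band. The pair was picked for its number of wide peaks, so a high share follows from the choice and is a description. No other cluster had more than 2. Peaks covered 39.2% of the first cluster and 36.8% of the second.

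The wide peaks of the first cluster followed each other at nearly equal steps. From start to start the 7 steps were 4.34, 4.21, 4.45, 4.55, 4.34, 4.32 and 4.32 kb, a mean of 4.36 kb with an SD of 0.108 kb over the steps. Their widths reached 1456 bp, with a median of 1142 bp. In 5 of the 8 cases a narrower peak of 369 to 597 bp came next, after a gap of 277 to 515 bp. The second cluster was less regular, with steps of 3.56, 4.26, 4.96, 5.36, 5.10 and 9.21 kb and a widest peak of 2219 bp.

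Steps of that length were not seen between wide peaks elsewhere. Inside the clusters 9 of the 21 pairs of wide peaks whose starts lay under 10 kb apart were 4 to 5 kb apart. In the rest of the list 0 of 16 such pairs were, which allows a share of up to 18.75%. This spacing was looked at after its values had been seen, and it rests on 1 stretch of 1 chromosome. Whether the sequence there repeats, and how reads from repeated copies would have been placed, was not tested, because no mm10 sequence was used.

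**Figure D3:**
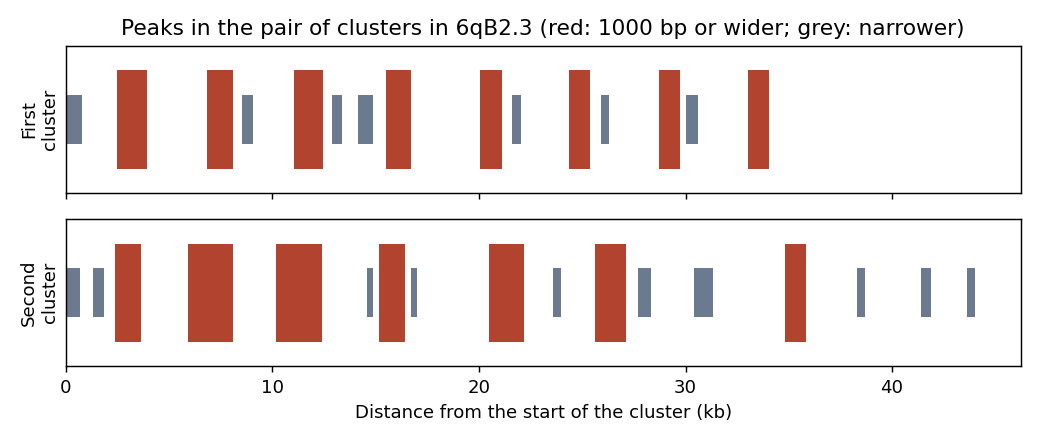
Position of each peak in the first (upper) and second (lower) cluster of 6qB2.3 in kb from the start of its own cluster, to scale, with wide peaks as tall red bars and narrower peaks as short grey bars; bar height carries only the class. In the first cluster the 8 wide peaks recur at steps of 4.21 to 4.55 kb.

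The other leading clusters had 2 wide peaks each. The cluster of 8 peaks in 8qE2 (chromosome 8, 126825728 to 126853195) held wide peaks of 1086 and 1115 bp. In 3qF1 a cluster of 7 peaks (chromosome 3, 90574495 to 90598667) held neighbouring wide peaks of 1486 and 1433 bp, and one of 6 peaks (chromosome 3, 88490958 to 88513536) held wide peaks of 2265 and 1352 bp at its ends. A cluster of 7 peaks in 12qD2 (chromosome 12, 86878148 to 86896376) held wide peaks of 1137 and 1656 bp. In 8qC2 (chromosome 8, 81840431 to 81865813) the wide peaks of a cluster of 6 spanned 1008 and 1166 bp, and in 14qB (chromosome 14, 31929168 to 31947550) those of a cluster of 5 spanned 2301 and 1308 bp. In all, 20 clusters held 2 wide peaks, and 168 held 1 wide peak beside narrower ones.

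The share of wide peaks was also read against how many other peaks had a midpoint within 100 kb. Among the 1455 peaks with none it was 9.69% (8.28 to 11.3), and among the 777 peaks with 3 or 4 it was 14.9% (12.6 to 17.6). These intervals do not overlap. The rise was not steady, with 12.003% at 1 other peak, 10.6% at 2 and 13.4% at 5 to 9. Among the 69 peaks with 10 or more it was 33.3% (23.4 to 45.1), of which 32 peaks were those of the 6qB2.3 clusters. Without those clusters it was 23.5% (12.4 to 40.0), or 8 of 34.

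**Figure D4:**
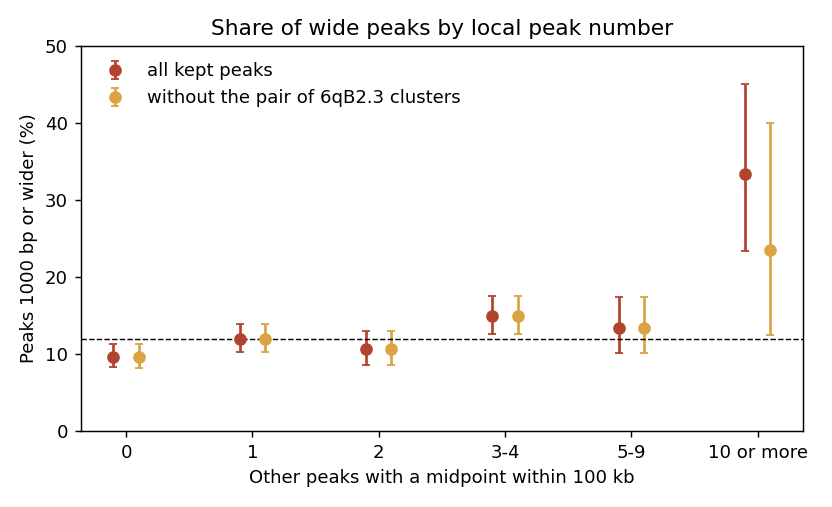
Share of peaks that are at least 1000 bp wide (vertical axis, with 95% Wilson intervals) by the number of other peaks with a midpoint within 100 kb, for all 4639 peaks (red) and without the pair of 6qB2.3 clusters (yellow); the dashed line is the overall 11.96%. The share is 9.69% with no other peak and 14.9% with 3 or 4, and the last class goes from 33.3% to 23.5% without the clusters.

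Counted over windows of 100 kb to either side, a wide peak had 2.77 other peaks on average and a narrower peak 1.79. Of these, 0.620 and 0.292 were wide. Without the 6qB2.3 clusters the averages were 2.03 and 1.67 other peaks, with 0.274 and 0.233 wide. With the clusters kept, the median number of other peaks within 100 kb was 1 for both classes. In windows of 1 Mb to either side the medians were 8 for wide and 7 for narrower peaks.

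Some wide peaks stood far from any other. No peak lay within 1 Mb of 21 members (3.78%, 2.49 to 5.72), and the same held for 137 narrower peaks (3.35%, 2.84 to 3.95). The isolated members had a median width of 1302 bp (1184 to 1476), beside 1264 bp for all members. The widest of them lay in 3qE3 (chromosome 3, 73667555 to 73670263, 2709 bp), 1886 kb from its nearest peak. Others lay in 8qB1.3 (chromosome 8, 55074323 to 55076120, 1798 bp), 1qE2.3 (chromosome 1, 114781005 to 114782687, 1683 bp), 6qB3 (chromosome 6, 60823869 to 60825482, 1614 bp) and 3qC (chromosome 3, 53863272 to 53864830, 1559 bp). Wide peaks thus occurred both in crowded and in empty stretches.

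By chromosome the share of wide peaks ran from 6.28% on chromosome 17 (12 of 191, 3.63 to 10.7) to 14.8% on chromosome 10 (39 of 263, 11.04 to 19.6). The interval held the overall share on 16 of 17 chromosomes, the exception being chromosome 17. Shares of 14.1% on chromosomes 3 and 12 and 13.6% on chromosome 6 were near the top, and 7.76% on chromosome X (9 of 116) and 8.89% on chromosome 16 near the bottom. Chromosome 8 had the most wide peaks per Mb (0.379), followed by chromosome 3 (0.375) and chromosome 12 (0.358), and chromosome X had 0.0526. On chromosomes 11, 15 and 19, which were left out, 12.1% of 1078 peaks were wide.

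**Figure D5:**
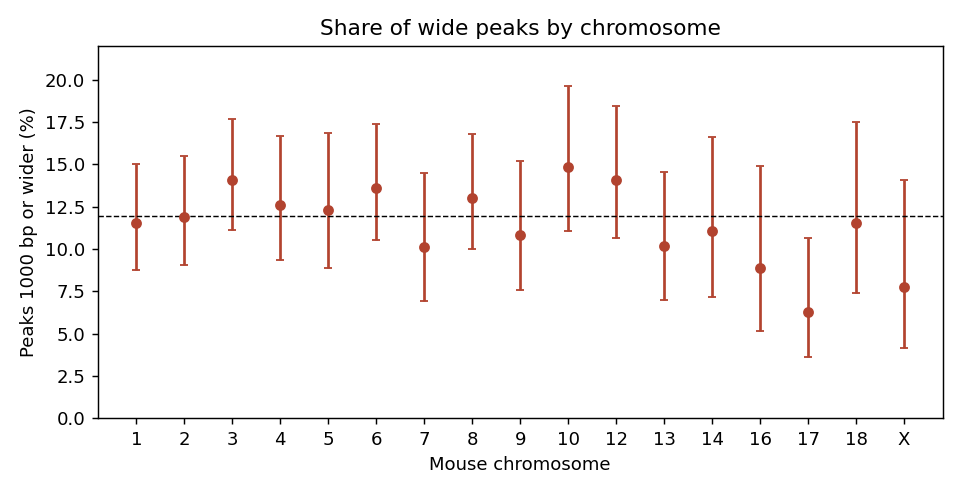
Share of peaks at least 1000 bp wide on each of the 17 chromosomes (points) with 95% Wilson intervals (bars); the dashed line is the overall 11.96%. Chromosome 17, at 6.28%, is the one chromosome whose interval lies wholly below the line, and 0 lie wholly above it.

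Chromosomes with more peaks per Mb tended to have a larger share of wide ones. Across the 17 chromosomes Pearson's r was 0.633 and Spearman's rho 0.637, given as a description, since all points share 1 list and its depth. Leaving out chromosomes X and 8, the farthest from the median in peaks per Mb, gave 0.525 and 0.546. The number of chromosome copies in FC1245 cells was not measured here, and its part in peak number or width was not tested.

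By band, 214 of 352 bands held at least 1 wide peak, another 104 held only narrower peaks, and the rest held no peak. The density over the kept chromosomes was 0.237 wide peaks per Mb. Among the 35 bands with at least 5 wide peaks, the density was highest in 6qB2.3 (15 wide peaks, 3.07 per Mb), where all came from the pair of clusters. It was followed by 12qD2 (chromosome 12, 85366412 to 88446642), with 6 wide peaks of 22 and 1.95 per Mb, and 3qF1 (chromosome 3, 83923247 to 93193838), with 14 of 61 and 1.51 per Mb. Then came 3qF2.1 (6 of 47, 1.37 per Mb), 8qE2 (6 of 28, 1.07), 9qA5.1 (6 of 28, 0.993), 4qD3 (7 of 46, 0.911), 10qC1 (13 of 64, 0.909), 1qH4 (5 of 22, 0.848) and 10qD3 (5 of 26, 0.845). In 3qF2.1 many wide peaks went with many peaks of any width: its wide share was 12.8% (5.98 to 25.2), close to that of the whole list.

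Of the 91 bands with at least 20 peaks, 83 had a wide share whose interval held the overall 11.96%. Of 91 intervals at 95%, some miss the true share by construction. Shares lay above it in 6qB2.3 (30.0%, 19.1 to 43.8), 14qB (30.0%, 14.5 to 51.9), 12qD2 (27.3%, 13.2 to 48.2), 3qG3 (6 of 24 peaks, interval 11.999 to 44.9%), 10qD2 (23.5%, 12.4 to 40.0), 3qF1 (23.0%, 14.2 to 34.9) and 10qC1 (20.3%, 12.3 to 31.7). The share lay below it in 17qA3.3 (chromosome 17, 21786072 to 31371942), where 0 of 34 peaks were wide, with a Wilson interval of 0 to 10.2% (3 counts of the total would be 8.82%). The next lowest were 9qA3 (1 of 28), 18qE3 (1 of 27), 17qC (1 of 26) and 2qH1 (1 of 25), with intervals that held the overall share.

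Bands differ in how they take up Giemsa stain, the light bands being richer in genes as a rule and the darkest ones poorer. Light bands made up 40.8% of the length and held 49.2% of wide peaks (45.0 to 53.3) and 47.3% of narrower ones (45.8 to 48.8). The interval of the difference between the classes ran from -2.51 to 6.33 points. The darkest bands made up 31.2% of the length and held 19.6% of wide (16.5 to 23.1) and 21.8% of narrower peaks (20.6 to 23.1). Per Mb, wide peaks numbered 0.285 in light and 0.149 in the darkest bands. These lengths include the start of each chromosome, where no kept peak began before 3.11 Mb, and were not corrected for it. By these uncorrected lengths both classes were denser in light bands than in the darkest ones. A difference between the classes was not detectable with this number of peaks.

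Along the chromosomes the share of wide peaks changed little. Each chromosome was cut into 5 equal stretches, counted from the end with the centromere. In the first, 10.7% of peaks were wide (8.63 to 13.1), and in the last 12.98% (11.1 to 15.1). Those between gave 13.1%, 11.3% and 11.2%.

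In the human HPAF-II lists, peaks of at least 1000 bp were 63 of 2774 for SPDEF (2.27%, 1.78 to 2.90) and 976 of 10669 for GATA6 (9.15%, 8.62 to 9.71), the mitochondrial peaks left out. The human and mouse lists come from different cells, tagged proteins and genomes and from libraries of unknown depth, which cannot be told apart as sources of that difference.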

How the data were processed

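CUT&RUN libraries were made with the CUTANA kit and the NEBNext Ultra II kit, per the labels' protocols. Tools named by the submitters' processing notes, without their roles, are MACS2 2.2.7.1, Bowtie2 2.4.4, deepTools and SAMtools 1.14, and mm10 is the mouse build named. For the way the 3 HA libraries entered the list, the control and the threshold, the sources used here give nothing. The authors' deposited lists hold peak positions in bp, with no score, signal or count. The mouse list was tied to FC1245 by its name, and all kept peaks end within mm10 chromosomes.

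Widths, gaps between edges, clusters (gaps up to 12500 bp) and bands were computed from the positions with Python 3.11.15, numpy 2.4.6, pandas 2.3.3 and scipy 1.17.1; matplotlib 3.10.9 drew the figures. Bands came from circlize 0.4.16 and lengths from GenomeInfoDb 1.38.1 in R 4.3.3; the band of a peak is that of its midpoint. Shares carry Wilson and their differences Newcombe 95% intervals. Medians carry order-statistic intervals, whose half-widths were combined for the difference. Nearest gaps, the class of the nearest peak and counts of neighbours were tested on simulated positions against exhaustive search. The intervals of differences were tested by their coverage in simulated data. Clusters, bands, runs and band weighting were not tested in this way.

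Named peaks were the 10 widest, the 3 nearest 1000 bp on either side and the 5 widest with no peak within 1 Mb. Named clusters were the 8 with most wide peaks. Named bands were the 10 densest with at least 5 wide peaks and the 5 of lowest wide share with at least 20 peaks. The 5 longest runs were named too. Members and rules were chosen with earlier results of these data known. The bands whose intervals missed the overall share and the step lengths in 6qB2.3 were singled out after their values were seen.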

Additional observations from a re-analysis of the deposited data

How the results depend on the processing

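No paired analysis was possible because the 3 libraries have 1 list and no values per replicate; no replicate was left out for the same reason. Of 55 alternative values, 49 stayed within the interval of the reported value. Leaving out the 6qB2.3 clusters, comparing clusters, neighbours and light bands with peaks of at least 500 bp among the narrower ones, the distances of 1 and 100 kb and leaving out chromosomes were added after seeing the data. The distance of 500 bp was not planned either.

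The other 6 values moved beyond the interval. Counting 750 bp as wide made 23.9% of peaks wide and 1500 bp made 3.13%, by construction. At 750 bp the difference within 10 kb was -0.748 points and that in wide nearest neighbours -0.786 points, both opposite in sign to the reported values, whose intervals include 0. At 1500 bp the light-band difference was 6.49 points, with an interval that included 0 (-1.75 to 14.5). Within 1 kb in place of 10 kb the difference was -2.10 points. The cause was not tested.

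The median gap was smaller for wide peaks in all 9 alternatives, with differences from -9.18 to -2.88 kb, and the interval left out 0 in 3 of them. Within 10 kb the difference was positive in 9 of 11 and its interval left out 0 in 5, the distance of 100 kb among them. For wide nearest neighbours it was positive in 8 of 9 and its interval left out 0 in 1, the limit of 1500 bp. The cluster difference was positive in all 10, from 2.12 to 5.76 points, and its interval included 0 only without the 6qB2.3 clusters. Among the runs that left out a chromosome, its interval included 0 without chromosome 6.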
